A study of Mus musculus with 8 samples.

Results

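Excitatory synapses of the cortex end on a protein lattice under the postsynaptic membrane, the postsynaptic density, and 34 genes that encode its scaffolds, its calcium sensors, the partners of its AMPA-type glutamate receptors and its actin regulators are described here. They were taken by symbol from a list chosen with earlier results of these data known, and matched by Ensembl gene identifier. All 34 were among the 15693 genes of the count table. By role, 14 encode scaffolds, 5 encode kinases, phosphatases and calmodulin-binding proteins, 9 encode AMPA receptor auxiliary, adhesion and pentraxin proteins, and 6 encode regulators of actin and of small GTPases.

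Cortex was sampled 4 times from the TDP-43Q331K line and 4 times from wild-type (WT) mice, all 4 months old and all in batch 1. The Tardbp product TDP-43 binds RNA, and the mutation the line is named for is linked to amyotrophic lateral sclerosis (ALS). The genotype label of the WT mice reads C57BL/6J, whereas the study's design text names c57bl6/n. The labels do not say which promoter drives the mutant protein or whether it is an added sequence or an edited mouse gene. Each library is polyadenylated RNA of whole tissue, so that fewer cells of a type and less RNA per cell cannot be told apart. Replicates are separate samples by their titles, and no label says whether each came from a different mouse, so that p-values measure only the spread between these samples.

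At these synapses, MAGUK proteins bind receptors and adhesion molecules at the membrane, SAPAP proteins (encoded by the Dlgap genes) link them to SHANK, and SHANK is joined by HOMER to metabotropic receptors and internal calcium stores. Calcium that enters through NMDA receptors binds calmodulin, which activates the kinase CaMKII and the phosphatase calcineurin, and these set how many AMPA receptors the synapse holds. Auxiliary proteins such as the TARPs (Cacng genes) and cornichons ride with AMPA receptors and tune their traffic and gating.

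Total counts were between 50446486 and 54890055 in the TDP-43Q331K libraries and between 45253021 and 58115164 in the WT libraries. Levels are given as CPM, the count scaled to a TMM-normalised library size, and fold changes are those of TDP-43Q331K over WT from edgeR's quasi-likelihood test, with Benjamini-Hochberg adjusted p-values (all genes, threshold 0.05). That test called 148 genes, or 0.943% of all. Tardbp itself was at 162, 141, 167 and 149 CPM in TDP-43Q331K and at 171, 198, 193 and 176 CPM in WT, without overlap and with log2 fold change -0.25 (edgeR adjusted p 0.106, DESeq2 adjusted p 0.0117). Markers of cortical excitatory neurons were present in every library, led by the vesicular glutamate transporter gene Slc17a7 at 1249.8 ± 40.9 CPM in TDP-43Q331K and 1323 ± 86.4 CPM in WT (SD, n = 4 each). The summed level of 10 such markers was between 1748 and 1925 CPM in TDP-43Q331K and between 1850.2 and 2101 CPM in WT. Of these 10 markers 9 had negative log2 fold changes, with a median of -0.11. An unadjusted p under 0.05 was found for 3 of them, all lower: Emx1 at -0.33 without overlap (edgeR adjusted p 0.0652), Fezf2 at -0.34 and Neurod6 at -0.25, named after their values were seen.

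None of the 34 genes passed edgeR's test in either direction, and 0.599% of all genes were called lower and 0.344% higher. At such small shares, 0 of 34 does not set these genes apart from the rest. At an adjusted p under 0.10, edgeR listed 2 of them, Nrgn and Dlg3, and 2.52% of all genes. At an unadjusted p under 0.05, 8 were lower and 2 were higher in TDP-43Q331K, where 7.77% of all genes were lower and 7.91% were higher. DESeq2 called 4 of them, all lower, against 2.63% of all genes called lower by that tool. By its voom or its trend method limma called 0 of them, and its share of all genes is not given here. In 5 genes, all lower, the 4 TDP-43Q331K libraries did not overlap the 4 WT libraries, while 5.19% of all genes were lower without overlap, 4.49% higher, and 9.68% either. Negative log2 fold changes were found for 26 of the 34 genes and for 48.2% of all genes, and the median was -0.061 over the 34 genes, -0.11 over the 10 excitatory neuron markers and 0.004 over all. The part of these markers in the values of the 34 genes was not tested. The 34 genes were not chosen blind to these data, so these shares describe them and test nothing. The values ran from -0.40 for Nrgn to 0.41 for Homer1.

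**Figure D1:**
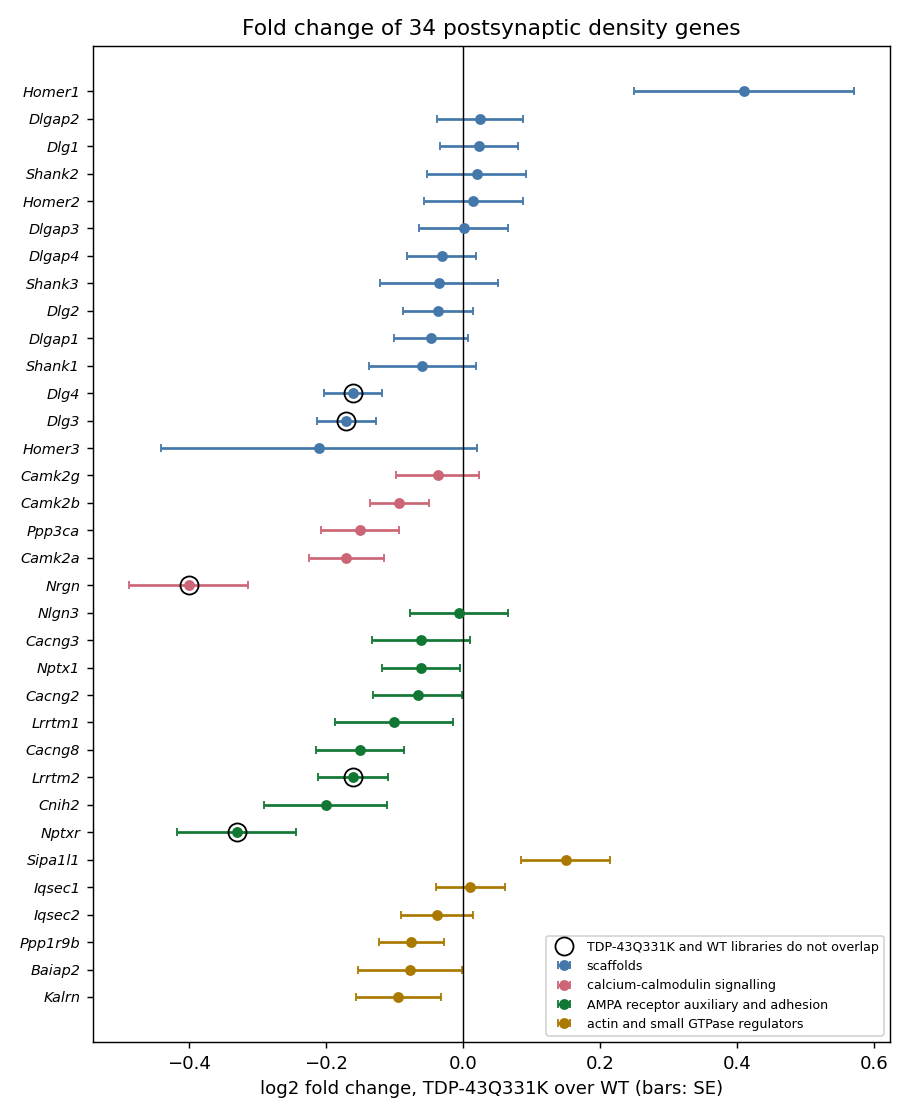
Log2 fold change (x axis, TDP-43Q331K over WT) of each gene (y axis), grouped and coloured by role, with bars for the standard error and black rings around genes whose 4 TDP-43Q331K and 4 WT libraries do not overlap. The ringed genes are Nrgn, Nptxr, Dlg3, Dlg4 and Lrrtm2, all left of 0, and Homer1 lies farthest to the right at 0.41.

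The RefSeq promoter table (build GRCm38.p6) held 38 promoters of 24 of the 34 genes. The 250 bases before the start site are printed for 4 genes. Nrgn, Dlg3 and Dlg4 are among the genes whose TDP-43Q331K libraries all lay below WT, and Homer1 had the highest fold change. Capitals mark matches, on either strand, to GGGCGG (a GC box) and TGACG (the core of the cyclic AMP response element). Nptxr and Lrrtm2, whose TDP-43Q331K libraries also lay below WT, are named only. The coordinates belong to GRCm38.p6, while the submitters' processing notes name GRCm39.
Nrgn, chr9:37552746-37552995, minus strand: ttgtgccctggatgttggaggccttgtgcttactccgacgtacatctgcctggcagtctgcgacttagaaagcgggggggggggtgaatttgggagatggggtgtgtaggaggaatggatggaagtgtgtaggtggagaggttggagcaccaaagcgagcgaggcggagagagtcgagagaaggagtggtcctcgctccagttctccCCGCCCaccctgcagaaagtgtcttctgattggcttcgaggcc
Dlg3, the first of 2 annotated starts, chrX:100774245-100774494, plus strand: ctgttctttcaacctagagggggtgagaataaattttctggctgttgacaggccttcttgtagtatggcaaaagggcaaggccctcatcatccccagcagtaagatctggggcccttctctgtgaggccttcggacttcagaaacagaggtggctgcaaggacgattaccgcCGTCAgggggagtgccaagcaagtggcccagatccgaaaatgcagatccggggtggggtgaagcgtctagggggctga
Dlg4, the third of 3 annotated starts, chr11:70023732-70023981, plus strand: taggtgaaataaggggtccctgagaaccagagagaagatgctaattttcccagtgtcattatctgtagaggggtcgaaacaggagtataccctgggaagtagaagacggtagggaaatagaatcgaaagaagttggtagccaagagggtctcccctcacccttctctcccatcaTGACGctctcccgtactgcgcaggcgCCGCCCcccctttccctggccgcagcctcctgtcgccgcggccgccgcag
Homer1, the first of 2 annotated starts, chr13:93303507-93303756, plus strand: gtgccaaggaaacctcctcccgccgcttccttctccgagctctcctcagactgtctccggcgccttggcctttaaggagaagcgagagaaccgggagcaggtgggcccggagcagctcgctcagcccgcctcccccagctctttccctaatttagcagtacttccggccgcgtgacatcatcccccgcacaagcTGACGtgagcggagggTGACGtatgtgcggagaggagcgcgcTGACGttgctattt

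Where a gene had several starts, the one with TGACG is printed, and the other starts of Homer1, Dlg3 and Dlg4 held 0 copies. The printed Homer1 promoter held 3 copies of TGACG, and 0.688% of the 32851 promoters in the table held at least 3. At least 1 copy was present in 7.89% of the 38 promoters, those printed for Homer1, Dlg3 and Dlg4, and in 17.8% of all promoters. The full 8-base site TGACGTCA, which contains TGACG, was in 0 of the 38 promoters and in 1.55% of all. GGGCGG was in 42.1% of the 38 promoters, among them those of Nrgn and Dlg4 printed above, and in 32.7% of all. CAGCTG, an E-box, was in 23.7% of the 38 and in 13.0% of all, TATAAA in 13.2% and 12.4%, CACGTG, another E-box, in 7.89% and 6.02%, and GCGTGGGCG, the EGR motif, in 2.63% and 0.536%. These are matches of letters in a fixed window.

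The calcium and calmodulin genes had the lowest median of the 4 role classes, at -0.149, with 5 of 5 genes negative, although AMPA receptor partners and adhesion were lower without TDP-43Q331K replicate 4 or WT replicate 4. Nrgn (ENSMUSG00000053310) encodes neurogranin, a small protein of dendritic spines that binds calmodulin when calcium is low. Its level was 619, 519, 541 and 459.8 CPM in TDP-43Q331K and 719, 662, 774 and 660.3 CPM in WT. Every TDP-43Q331K library was below every WT library. The means were 535 ± 66.0 CPM in TDP-43Q331K and 704 ± 54.0 CPM in WT (SD, n = 4 each), log2 fold change -0.40 (SE 0.09, edgeR adjusted p 0.0678). DESeq2 gave the same -0.40 with an adjusted p of 0.00065. The value lay between -0.48 and -0.33 when 1 library was left out, and edgeR's test was passed in 1 of these 8 fits, that without TDP-43Q331K replicate 1 (adjusted p 0.0327).

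Camk2a encodes the alpha subunit of CaMKII and had the highest CPM of the 34 genes. It was at 2943, 2851, 3026 and 3004 CPM in TDP-43Q331K and at 3593, 3487, 3012 and 3181 CPM in WT. The 4 TDP-43Q331K libraries lay close together, and WT replicate 3 lay just below the highest of them. The log2 fold change was -0.17 (SE 0.06, edgeR adjusted p 0.182). Camk2b, the beta subunit that also binds actin, was at 918 ± 27.2 CPM in TDP-43Q331K and 979 ± 34.3 CPM in WT (SD, n = 4 each), and Camk2g, the gamma subunit, at 288 ± 13.2 and 296 ± 21.9 CPM. Per kilobase of exon, Camk2a made up 72.3 ± 0.733% of the summed level of Camk2a, Camk2b, Camk2g and Camk2d in TDP-43Q331K and 73.4 ± 1.89% in WT (SD, n = 4 each). The make-up of this kinase family differed by less than the spread between WT libraries.

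Ppp3ca encodes a catalytic subunit of calcineurin, the calcium-dependent phosphatase that opposes CaMKII at the synapse. It was at 1261, 1202, 1214 and 1214 CPM in TDP-43Q331K and at 1478, 1298, 1231 and 1413 CPM in WT. Only WT replicate 3 lay within the TDP-43Q331K range. The log2 fold change was -0.15 (SE 0.06, edgeR adjusted p 0.246).

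Among the scaffolds, the MAGUK genes split into a pair whose libraries lay below WT without overlap and a pair whose libraries overlapped. Dlg4 encodes PSD-95, the most abundant MAGUK of mature excitatory synapses. Its level was 704, 707, 677 and 683 CPM in TDP-43Q331K and 787, 803, 762 and 748 CPM in WT, with no overlap. The means were 693 ± 14.9 CPM in TDP-43Q331K and 775 ± 24.8 CPM in WT (SD, n = 4 each), log2 fold change -0.16 (SE 0.04, edgeR adjusted p 0.104, DESeq2 adjusted p 0.00187). Dlg3 encodes SAP102, a MAGUK that binds NMDA receptors and is prominent in young synapses. It was at 201, 202, 202 and 186 CPM in TDP-43Q331K and at 226, 227, 218 and 222 CPM in WT, again with no overlap and log2 fold change -0.17 (SE 0.04, edgeR adjusted p 0.0951, DESeq2 adjusted p 0.00276).

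Dlg1 (SAP97) was at 204 ± 15.9 CPM in TDP-43Q331K and 200.3 ± 5.02 CPM in WT, and Dlg2 (PSD-93) at 470.1 ± 24.1 and 482 ± 18.5 CPM (SD, n = 4 each), with log2 fold changes of 0.02 and -0.04. Per kilobase of exon, Dlg4 held 39.0 ± 1.02% of the summed MAGUK level in TDP-43Q331K and 40.4 ± 0.749% in WT. Dlg3 held 25.3 ± 0.451% in TDP-43Q331K and 26.3 ± 0.187% in WT, and Dlg1 14.1 ± 0.62% in TDP-43Q331K and 12.9 ± 0.18% in WT (SD, n = 4 each). The share of Dlg1 was at least 13.5% in each TDP-43Q331K library and at most 13.0% in each WT library. These shares sum to a fixed whole and show unequal change among the 4 genes, not which of them changed. Neither their difference nor that between the 2 pairs was tested.

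**Figure D2:**
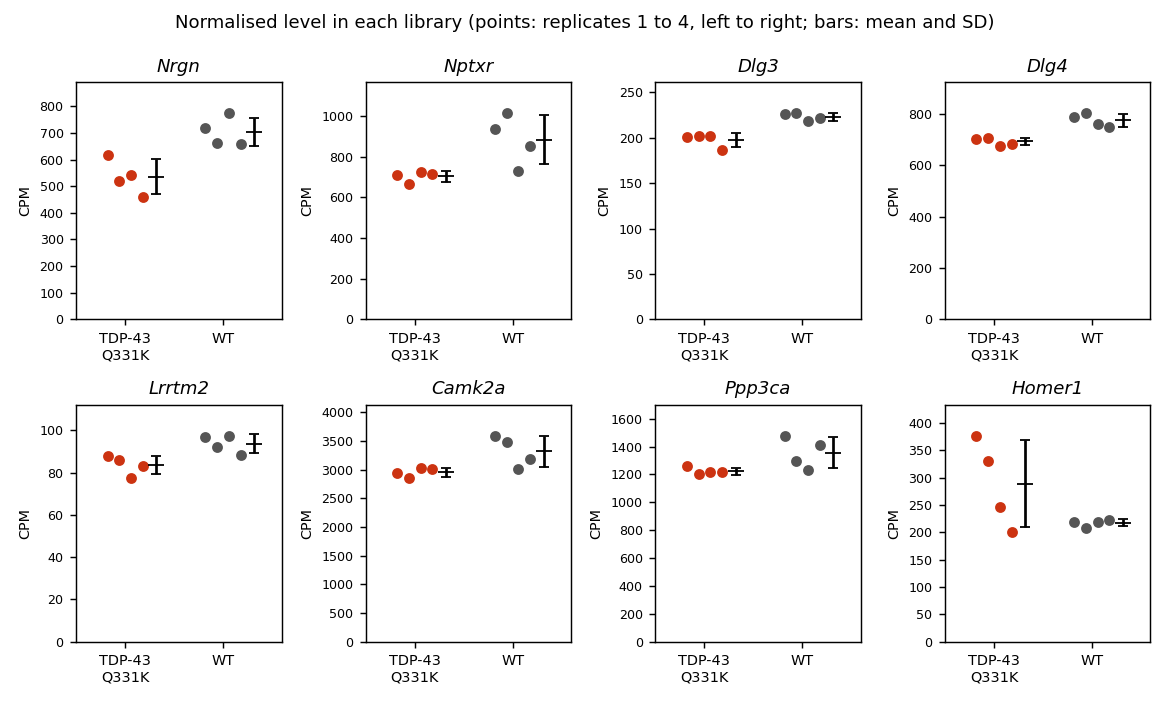
CPM (y axis, from 0) of 8 genes in the 4 TDP-43Q331K libraries (red, left) and the 4 WT libraries (grey, right), with the mean and SD beside each group. The groups do not overlap for Nrgn, Nptxr, Dlg3, Dlg4 and Lrrtm2, WT replicate 3 reaches the TDP-43Q331K range for Camk2a and Ppp3ca, and Homer1 spans 201 to 377 CPM in TDP-43Q331K and 209 to 223 CPM in WT.

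The SAPAP and SHANK scaffolds, which stack beneath the MAGUK layer, had log2 fold changes that were each smaller than their standard error. The standard errors were 0.05 to 0.065 for the SAPAP genes and 0.072 to 0.086 for the SHANK genes. Their difference from the MAGUK genes was not tested. The log2 fold changes of Dlgap1, Dlgap2, Dlgap3 and Dlgap4 were between -0.05 and 0.03, and 2 of the 4 were negative. Those of Shank1, Shank2 and Shank3 were between -0.06 and 0.02. None of the 7 had an unadjusted p under 0.05, and the lowest edgeR adjusted p among them was 0.726, for Dlgap1. Shank1, the highest of the 3 SHANK genes, was at 625, 513, 636 and 566 CPM in TDP-43Q331K and at 582, 675, 618 and 563 CPM in WT, so that the groups lay across each other. Shank3, whose loss in humans is linked to autism, ranged from 224 to 262 CPM in TDP-43Q331K and from 201 to 262 CPM in WT.

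Among the HOMER genes, Homer1 and Homer3 varied widely between TDP-43Q331K libraries and little between WT libraries, while Homer2 did not. No test of spread was run. Homer1 encodes both long scaffold forms and a short form that neuronal activity induces and that uncouples the scaffold, and counts per gene do not part them. It was at 377, 330.4, 247 and 201 CPM in TDP-43Q331K and at 219.9, 209, 219.8 and 223 CPM in WT. TDP-43Q331K replicates 1 to 3 were above every WT library, and replicate 4 was below all of them. The coefficient of variation was 27.4% in TDP-43Q331K and 2.68% in WT. The log2 fold change was 0.41 (SE 0.16, edgeR adjusted p 0.249) and lay between 0.25 and 0.55 with 1 library left out.

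Homer3, a form better known from cerebellar Purkinje cells, was the lowest of the 34 genes. It was at 3.48, 6.36, 6.71 and 9.72 CPM in TDP-43Q331K and at 7.48, 7.58, 7.47 and 7.94 CPM in WT, a coefficient of variation of 38.8% in TDP-43Q331K and 2.91% in WT. The lowest and the highest library were both TDP-43Q331K. Exons of Ddx49 on the opposite strand cover 25.4% of its exon length, and no source used here states the strand setting of the counting, so its count is uncertain. Homer2, a long scaffold form, was at 86.0 ± 8.55 CPM in TDP-43Q331K and 85.1 ± 5.68 CPM in WT (SD, n = 4 each).

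Xist, which is transcribed in female cells, parted the libraries. Replicates 1 and 2 of TDP-43Q331K had 1015 and 905 CPM of it, replicates 2 and 3 of WT had 984 and 876 CPM, and every other library had at most 1.37 CPM. Among the libraries with Xist, Homer1 averaged 353 CPM in TDP-43Q331K and 215 CPM in WT, a log2 ratio of 0.72. Among those without, it averaged 224 CPM in TDP-43Q331K and 221 CPM in WT, a log2 ratio of 0.019. Each of these 4 means rests on 2 libraries, and the difference between the splits was not tested. For Nrgn the log2 ratio was -0.34 with Xist and -0.46 without, for Nptxr -0.34 and -0.32, for Dlg3 -0.14 and -0.20, for Dlg4 -0.15 and -0.18, and for Lrrtm2 -0.13 and -0.20. Over the 34 genes the sign was negative in both splits for 15, positive in both for 5 and opposite for 14.

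Genes for the partners of AMPA receptors and for adhesion were negative in 9 of 9, with a median of -0.10. Nptxr encodes the neuronal pentraxin receptor, a membrane protein whose extracellular pentraxin domain binds and clusters AMPA receptors. It was at 712, 664, 726 and 714 CPM in TDP-43Q331K and at 936, 1014, 730.2 and 855 CPM in WT. The groups did not overlap, although WT replicate 3 was only just above the highest TDP-43Q331K library. The means were 704 ± 27.4 CPM in TDP-43Q331K and 884 ± 121 CPM in WT (SD, n = 4 each), log2 fold change -0.33 (SE 0.09, edgeR adjusted p 0.110, DESeq2 adjusted p 0.00818). Without WT replicate 3 it was -0.41 and passed edgeR's test (adjusted p 0.0282), the only one of the 8 such fits in which it did. The transcript Npcd shares 17.2% of its exon length, so part of its reads may be ambiguous. Nptx1, a secreted pentraxin that binds the same receptor complex, was at 409 ± 16.7 CPM in TDP-43Q331K and 427 ± 29.3 CPM in WT (SD, n = 4 each).

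Lrrtm2 encodes a leucine-rich adhesion protein that holds the postsynaptic side to presynaptic neurexin. It was at 87.7, 85.8, 77.7 and 83.3 CPM in TDP-43Q331K and at 97.0, 92.3, 97.5 and 88.2 CPM in WT, with no overlap. The log2 fold change was -0.16 (SE 0.05, edgeR adjusted p 0.153, DESeq2 adjusted p 0.0622). Its paralog Lrrtm1 was at 49.1 ± 5.02 CPM in TDP-43Q331K and 52.6 ± 5.23 CPM in WT, and Nlgn3, a neuroligin that also binds neurexins, at 52.7 ± 3.81 and 52.9 ± 4.47 CPM (SD, n = 4 each). A read-through transcript shares 41.2% of the exon length of Nlgn3, so its count is uncertain.

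Of the AMPA receptor auxiliary genes, Cnih2, which encodes a cornichon that slows receptor closing, was at 117, 148, 138 and 162 CPM in TDP-43Q331K and at 159.7, 158, 179 and 151 CPM in WT. TDP-43Q331K replicate 1 was well below the other libraries, and replicate 4 was inside the WT range. Its log2 fold change was -0.20 (SE 0.09, edgeR adjusted p 0.330). Cacng8, the TARP gamma-8, was at 49.6, 52.4, 57 and 56.9 CPM in TDP-43Q331K and at 59.4, 62.4, 63.2 and 54.1 CPM in WT, with log2 fold change -0.15 (SE 0.06, edgeR adjusted p 0.296). Cacng2, which encodes stargazin, and Cacng3, the TARP gamma-3, had log2 fold changes of -0.07 and -0.06 (SE 0.065 and 0.072).

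The actin and small GTPase regulators had a median of -0.056, with 4 of 6 negative. Sipa1l1 encodes a GTPase-activating protein that binds PSD-95 and switches Rap off. It was at 594, 565, 545 and 481 CPM in TDP-43Q331K and at 471, 485, 494 and 518 CPM in WT, so that 3 of the 4 TDP-43Q331K libraries were above every WT library. Its log2 fold change was 0.15 (SE 0.07, edgeR adjusted p 0.295), the only one of the 34 besides that of Homer1 that was positive at an unadjusted p under 0.05. Kalrn, an activator of Rac that enlarges spines, had a log2 fold change of -0.09, with 713, 624, 767 and 658 CPM in TDP-43Q331K and 739, 727, 741 and 742 CPM in WT. Ppp1r9b, which encodes the spine scaffold spinophilin, was at -0.07 and Baiap2, which bends membrane at actin sites, at -0.08. Iqsec1 and Iqsec2, activators of the GTPase ARF6, were at 0.01 and -0.04.

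**Figure D3:**
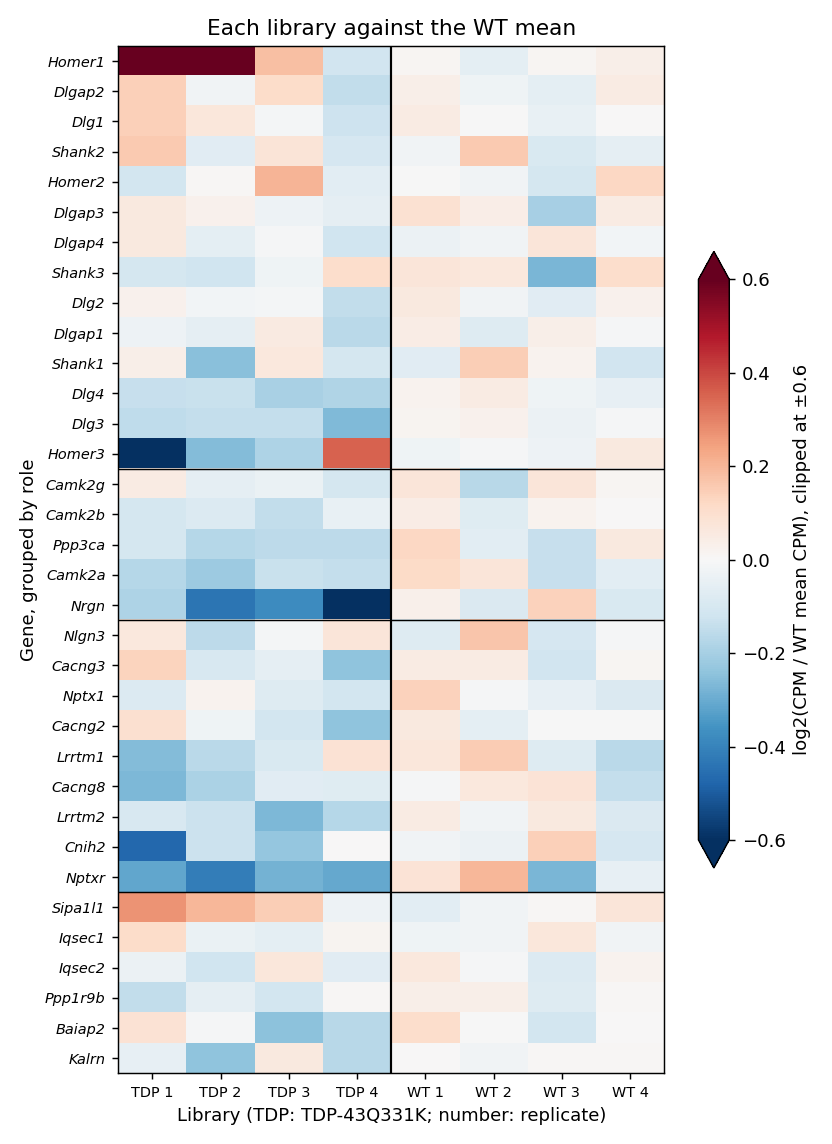
Log2 ratio of each library's CPM to the WT mean (colour, clipped at 0.6 in both directions) for 34 genes (rows, by role) in 4 TDP-43Q331K and 4 WT libraries (columns). Among the rows that are blue in all 4 TDP-43Q331K columns are Nrgn, Nptxr, Dlg3, Dlg4, Lrrtm2, Camk2a and Ppp3ca. Homer1 and Homer3 show the strongest contrast among the TDP-43Q331K columns.

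Together the 34 genes took 1.46% to 1.52% of all counts in the TDP-43Q331K libraries and 1.52% to 1.64% in the WT libraries. The median log2 ratio to the WT mean over the 34 genes was between -0.112 and -0.044 in the TDP-43Q331K libraries and between -0.04 and 0.04 in the WT libraries. WT replicate 3 was the closest of the WT libraries to the TDP-43Q331K range and was the lowest of its group in 17 of the 34 genes. TDP-43Q331K replicate 1 was the highest of its group in 16 genes, and replicate 4 the lowest of its group in 15.

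Markers of neighbouring tissue were mostly higher in TDP-43Q331K. The summed level of 11 markers of thalamus and olfactory bulb was 259, 317, 298 and 366 CPM in TDP-43Q331K and 189.9, 175, 264 and 245 CPM in WT, with log2 fold changes above 0 in 11 of 11. The lowest TDP-43Q331K sum lay below the highest WT sum, and the other 3 lay above every WT sum. The list holds different library patterns, shown by 3 genes chosen after their values were seen. Slc17a6 alone of the 11 markers did not overlap between the groups. It was between 33.2 and 50.0 CPM in TDP-43Q331K and between 25.7 and 31.7 CPM in WT. Its log2 fold change was 0.45 (edgeR adjusted p 0.123, DESeq2 adjusted p 0.0146), and between 0.30 and 0.51 with 1 library left out. The thalamic marker Prkcd was at 9.54, 16.4, 9.48 and 67.7 CPM in TDP-43Q331K and between 8.69 and 12.5 CPM in WT, so that replicate 4 alone stood high, and its lowest log2 fold change with 1 library left out was 0.14, against 1.27 with all. The olfactory bulb marker Eomes was at 8.38, 18.4, 17.2 and 4.07 CPM in TDP-43Q331K and at 0.182, 0.0862, 13.3 and 9.51 CPM in WT, so that replicate 4 was the lowest of its group. No marker of that list was at 0, and the 2 with the highest mean, Rora and Cdhr1, were at 110.4 and 61.7 CPM in TDP-43Q331K and at 95 and 38.0 CPM in WT. Without TDP-43Q331K replicate 4 the median of the 34 genes was -0.045. The mean over all 11 markers, thalamic and olfactory together, of log2 CPM (0.5 added) then served as a covariate, not the sum above. With it the median log2 fold change of the 34 genes was -0.013 and 18 of them were negative. Because these markers were themselves higher in TDP-43Q331K, the fit cannot part them from genotype. In that fit 3 genes had an unadjusted p under 0.05, Nrgn, Cnih2 and Dlg3, where 8.91% of all genes did, and edgeR called 0 of the 34 and 12 genes in all. In the same fit Nrgn was at -0.37 (edgeR adjusted p 0.434), while Nptxr was at -0.11 (adjusted p 0.694), Camk2a at -0.04 (adjusted p 0.852), Dlg4 at -0.11 (adjusted p 0.583) and Lrrtm2 at -0.15 (adjusted p 0.573). Homer1 was at 0.48 (adjusted p 0.562).

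The sums of the other marker lists overlapped between the groups. The 8 oligodendrocyte markers, among them Mbp, summed to between 3815 and 5351 CPM in TDP-43Q331K and between 3768 and 4429 CPM in WT, and the 8 interneuron markers, led by Gad1 and Gad2, to between 1171 and 1417 CPM in TDP-43Q331K and between 1010.3 and 1343 CPM in WT. The 8 astrocyte markers, led by Slc1a2 and Slc1a3, summed to between 3954 and 4525 CPM in TDP-43Q331K and between 3850.4 and 4733 CPM in WT. Microglial markers, among them Csf1r, summed to between 273 and 316 CPM in TDP-43Q331K and between 293 and 326 CPM in WT, and endothelial markers, led by Flt1 and Slco1a4, to between 153 and 202 CPM in TDP-43Q331K and between 157 and 201 CPM in WT. Striatal markers, led by Pde10a and Ppp1r1b, spanned 581 to 1226 CPM in TDP-43Q331K and 468 to 1292 CPM in WT. Choroid plexus markers, led by Ttr and Kl, spanned 44.7 to 577 CPM in TDP-43Q331K and 15.5 to 402 CPM in WT. Log2 fold changes were positive in 8 of 8 oligodendrocyte, 5 of 8 interneuron, 5 of 8 astrocyte and 1 of 8 microglial markers. They were also positive in 3 of 6 endothelial, 7 of 9 striatal and 6 of 6 choroid plexus markers. The microglial gene P2ry12, chosen after its values were seen, was at -0.26 without overlap (edgeR adjusted p 0.0906, DESeq2 adjusted p 0.00744). With the choroid plexus, striatal or oligodendrocyte markers as a covariate the median of the 34 genes was -0.059, -0.070 or -0.042. The part of interneuron, astrocyte, microglial and endothelial markers in these values was not tested.

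**Figure D4:**
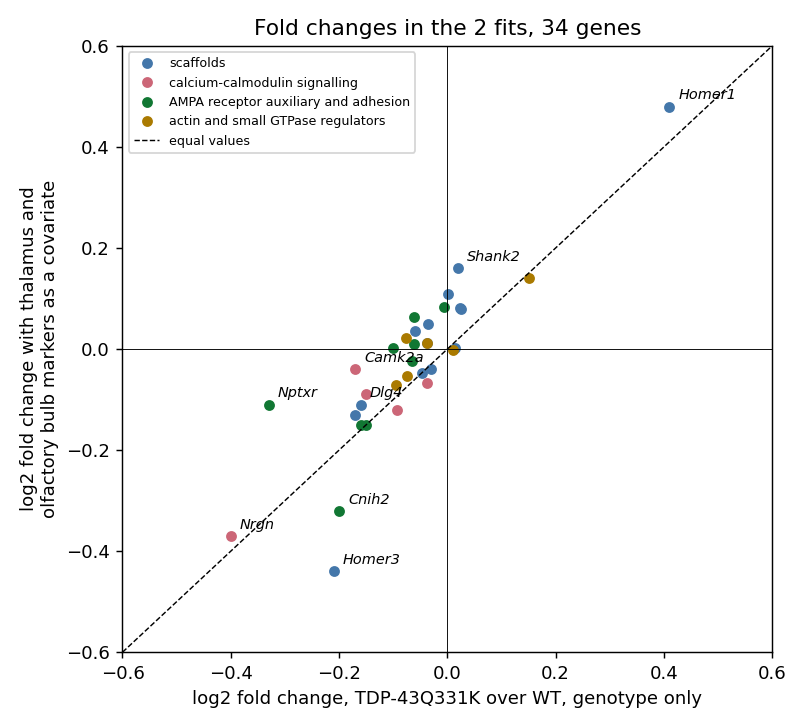
Log2 fold change of the 34 genes with genotype as the only term (x axis) and with thalamus and olfactory bulb markers as a covariate (y axis), coloured by role, with a dashed line where both are equal. Nrgn lies near the line at -0.40 and -0.37, and Nptxr and Camk2a lie above it, at -0.11 and -0.04 on the y axis.

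The genes differ in size, and the shorter ones had the lower fold changes. From the GENCODE M21 annotation, their spans ran from 5654 bases for Cnih2 to 1972576 bases for Dlg2, with a median of 65919.5 bases against 23467 bases over 15470 annotated genes. All 17 genes with the shorter spans had negative log2 fold changes, with a median of -0.148, whereas 9 of the 17 with the longer spans did, with a median of -0.031. Spearman's rho between span and log2 fold change was 0.63 over the 34 genes, 0.64 without Homer1, 0.09 over 60 other postsynaptic genes and 0.12 over all annotated genes. With exon length in place of span it was 0.51 over the 34 genes and 0.16 over all. These points share the same 8 libraries, and the relation to span was computed after the values were seen. At least 1 annotated transcript with an unbroken run of 6 TG dinucleotides, the repeat that TDP-43 is known to bind as RNA, was present in 17.6% of the 34 genes and in 13.7% of annotated genes. These 6 were Homer1, Homer2, Dlg4, Shank3, Nlgn3 and Dlgap4, with fold changes on both sides of 0.

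**Figure D5:**
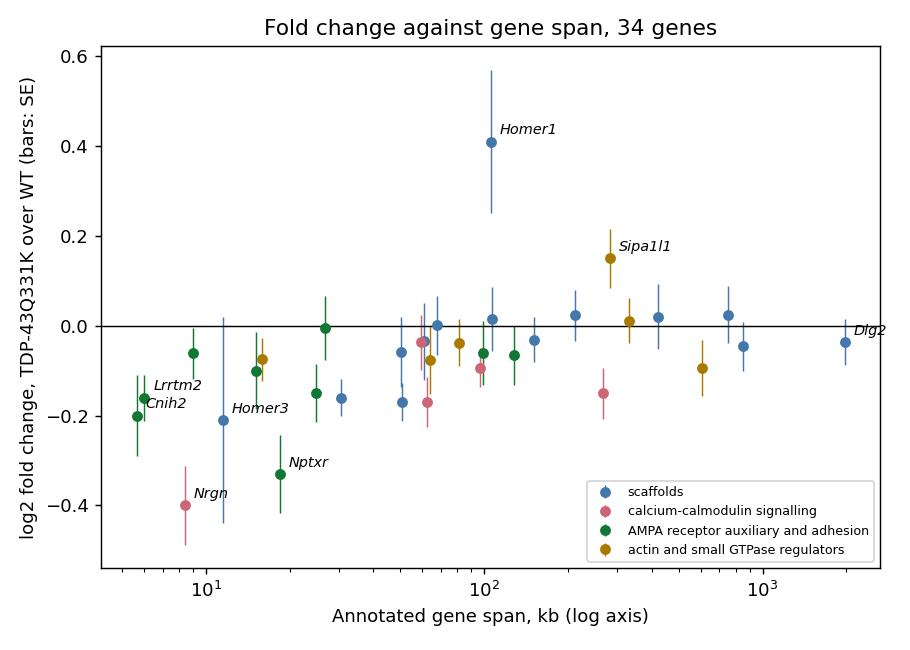
Log2 fold change, TDP-43Q331K over WT (y axis, bars for the standard error), against annotated gene span in kilobases (x axis, log scale) for the 34 genes, coloured by role. The 17 genes with the shorter spans lie below 0, with Nrgn and Nptxr lowest, and the 17 with the longer spans lie on both sides of 0.

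Per kilobase of exon, Nrgn and Camk2a were the highest of the 34 genes, at 368 ± 45.4 and 396 ± 10.5 CPM per kilobase in TDP-43Q331K and at 484 ± 37.2 and 444 ± 36.0 CPM per kilobase in WT (SD, n = 4 each). Camk2a had the higher mean of the pair in TDP-43Q331K and Nrgn in WT, and neither order was tested. They were followed by Ppp1r9b, Nptxr, Ppp3ca and Cnih2, between 103 and 197 CPM per kilobase in TDP-43Q331K and between 118 and 207 CPM per kilobase in WT. Homer3 was lowest, at 1.91 CPM per kilobase in TDP-43Q331K and 2.21 CPM per kilobase in WT. The counts behind the values ran from 174 for Homer3 in its lowest library to at least 2129 in every library for the other 33 genes.

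Of 60 other genes of the postsynaptic density, edgeR's test called 0. DESeq2 called 6, all lower, against 2.63% of all genes called lower by that tool. In edgeR 11 were lower and 3 higher with an unadjusted p below 0.05, against 7.77% and 7.91% of all genes. Negative log2 fold changes were seen in 45 of these 60 genes, and the median was -0.085. The other calcium and calmodulin genes were negative in 12 of 12, with a median of -0.138, and 6 of them were lower at an unadjusted p under 0.05. Cnih3, Ppp3r1 and Calm3 were among the 4 genes with the smallest p. Cnih3, the second cornichon that binds AMPA receptors, was at 66.0, 58.7, 65.2 and 61.5 CPM in TDP-43Q331K and at 72.7, 75.0, 87.2 and 73.9 CPM in WT, with no overlap and log2 fold change -0.30 (SE 0.06, edgeR adjusted p 0.0639, DESeq2 adjusted p 0.0023).

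Ppp3r1, the regulatory subunit of calcineurin, was at 629 ± 13.9 CPM in TDP-43Q331K and 703 ± 21.7 CPM in WT (SD, n = 4 each), a log2 fold change of -0.16 (edgeR adjusted p 0.106). Calm3, which encodes calmodulin, was at 1391 ± 62.7 CPM in TDP-43Q331K and 1544 ± 43.6 CPM in WT (SD, n = 4 each), a log2 fold change of -0.15 (edgeR adjusted p 0.139). Neither gene overlapped between the groups. Calm3 has a processed pseudogene in the table that is 96.2% identical over 367 bases, and a transcript of Wdr92 shares 422 bases with Ppp3r1, so both counts are uncertain. Nptx2, an activity-induced pentraxin chosen after its values were seen, was at 73.0, 74.9, 54.7 and 47.5 CPM in TDP-43Q331K and at 48.4, 52.9, 53.3 and 43.2 CPM in WT (edgeR adjusted p 0.266), so that replicates 1 and 2 of TDP-43Q331K were its highest libraries, as they were for Homer1.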

How the data were processed

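Oligo(dT) beads captured the messenger RNA for stranded Illumina libraries, per the labels' protocols. Among the tools in the submitters' processing notes, which state no roles, are STAR 2.7.6a, edgeR 4.4.2 and R 4.3.1, with the build GRCm39. How reads were counted, with which strand setting and annotation, is not stated. One of the authors' tables holds raw counts per gene, per the file headers. The other holds a TMM-normalised signal, which the authors made from the same counts. Each has 15693 genes, and 0 columns lacked a sample.

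Counts were compared in R 4.3.3 with edgeR 4.0.16 (TMM scaling, genotype as the single factor, two-sided quasi-likelihood F-test), and filterByExpr kept every gene. DESeq2 1.42.0 and limma 3.58.1 served as alternatives, limma also on log2 of the deposited signal plus 1. Counts are not independent molecules. Pairs of libraries of 1 genotype gave 14.6 to 28 as the ratio of chi-square to its degrees of freedom, so none was a copy. Symbols, lengths and neighbours came from GENCODE M21 (GRCm38), with 15470 identifiers matched and 223 not. Copies were sought by megablast at 90% identity over 50% of a transcript. On simulated data with known changes the test recovered large changes more often than small ones, of which it missed most. All 34 genes, Tardbp and the 4 other postsynaptic genes with the smallest p are named by rule, as are the 2 highest genes of each marker list. A few genes that this rule names are not reported here. The members and lists were chosen with earlier results of these data known. Figures used Python 3.11.15.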

Additional observations from a re-analysis of the deposited data

Results flagged for a closer look

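In 5 of the 68 groups of 4 libraries examined (34 genes in 2 genotypes), 1 library stood apart from the other 3 by a gap above Dixon's 95% critical value for 4 samples. Chance flags about 1 in 20 groups. Dlg3 was at 186 CPM in TDP-43Q331K replicate 4 and between 201 and 202 CPM in the other TDP-43Q331K libraries. In WT replicate 3, Dlgap4 was at 301 CPM and Iqsec1 at 269.7 CPM, both above the other WT libraries (279.9 to 283 CPM and 252 to 253 CPM), and Shank3 was at 201 CPM, below the others (254 to 262 CPM). Kalrn was at 727 CPM in WT replicate 2 and between 739 and 742 CPM in the other WT libraries.

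For 2 MAGUK genes the libraries with Xist and those without moved in opposite directions without overlap in either, with 2 libraries of each genotype in each split. The log2 ratio of TDP-43Q331K to WT for Dlg1 was 0.13 among libraries with Xist and -0.088 among those without, and for Dlg2 it was 0.047 and -0.12. Opposite directions without overlap in both splits were seen in 5.88% of the 34 genes and in 5.52% of all genes, so the share was near that of the table as a whole. The difference between the splits was not tested.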

How the results depend on the processing

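Precision is limited by the spread between 4 libraries a group and, for Homer3, by low counts. The 148 genes called by edgeR were 701 with DESeq2, 396 at an adjusted p under 0.10, 12 with thalamus and olfactory bulb markers as a covariate and 51 to 129 with 1 library left out. Of the 34 genes, 0 were called by edgeR, 4 by DESeq2, 2 at an adjusted p under 0.10 and 0 to 1 with 1 library left out. Of the 60 other postsynaptic genes these counts were 0, 6 and 1. The 10 genes at an unadjusted p under 0.05, where 15.7% of all genes were, became 3 with the thalamus and olfactory bulb covariate, where 8.91% were. They were 6 to 12 with 1 library left out, and the share of all genes in those fits is not given here. The 5 genes without overlap were 5 to 10 with 1 library left out, reaching 10 without TDP-43Q331K replicate 4, where 15.2% of all genes did not overlap, and 8 without WT replicate 3, where 13.8% did not. With fewer libraries a group, fewer genes of any kind overlap.

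The median of the 34 genes was -0.061, and -0.013 with the thalamus and olfactory bulb covariate, under which the class medians were 0.024 for scaffolds, -0.089 for calcium and calmodulin genes, -0.023 for AMPA receptor partners and adhesion and 0.005 for actin and GTPase regulators. The class of AMPA receptor partners was at -0.169 with the choroid plexus covariate and between -0.163 and -0.077 with 1 library left out. It was below the calcium and calmodulin class without TDP-43Q331K replicate 4 (-0.163 against -0.145) and without WT replicate 4 (-0.151 against -0.128). The cause was not tested.

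The sign changed under at least 1 setting for 16 of the 34 genes and under none for 18, over 14 settings with all libraries and 8 that left out 1. With the thalamus and olfactory bulb covariate the log2 fold change was 0.063 for Cacng3, -0.0024 for Iqsec1, 0.083 for Nlgn3, 0.013 for Iqsec2, 0.050 for Shank3, 0.003 for Lrrtm1, 0.0093 for Nptx1, 0.021 for Baiap2, 0.012 for Dlg2 and 0.036 for Shank1. With the choroid plexus covariate it was 0.015 for Nlgn3, 0.015 for Dlgap4 and -0.018 for Dlgap3. Dlgap3 was at -0.0039 with DESeq2 and with RLE scaling, -0.019 with the striatal covariate and -0.017 with upper quartile scaling, under which Homer2 was at -0.0019 and Iqsec1 at -0.0059. Nlgn3 was at 0.009 with library size only and 0.013 with the oligodendrocyte covariate. With 1 library left out, Dlg1 lay between -0.026 and 0.069, Dlgap2 between -0.022 and 0.079, Dlgap3 between -0.06 and 0.032, Shank2 between -0.035 and 0.075, Shank3 between -0.12 and 0.0023, Homer2 between -0.055 and 0.059, Nlgn3 between -0.037 and 0.054 and Iqsec1 between -0.032 and 0.035.

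Replicate numbers did not pair the samples: same-numbered libraries had deviation correlations of -0.37, -0.07, -0.046 and -0.018, and 0 of 8 correlated best with its own number. With a replicate block, edgeR called 14 genes in all and 0 of the 34, whose median was -0.063.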
